A study of Mus musculus with 12 samples.

Results

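Lungs of mice without Gadd45a were compared, across all measured genes, with lungs of wild type mice, both without injurious ventilation. The comparison held 6 of the 12 arrays of the study, 1 array per mouse. They were chosen by sample title, 3 arrays titled GADD45-/- - SB (called KO SB here) and 3 titled WT-SB (called WT SB). The other 6 arrays came from KO and WT mice given ventilator-induced lung injury (VILI), 3 arrays per genotype. Ventilation was at 30 ml/kg and 65 breaths per minute for 4 hours. The VILI arrays served here to measure the genotype difference a further time, and they also entered the estimate of each gene's spread. All mice were 8 to 12 weeks old, and total RNA of whole lung was hybridised to single-colour Affymetrix mouse arrays. SB is not spelled out in the labels, and the design text calls the WT SB group the control. The genotype is written GADD45-/- in SB and GADD-/- after VILI, and the series title names Gadd45a. The sources used here do not give the deleted part of the gene, the strain, the sex, the sampling time or the hybridisation batch.

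Gadd45a encodes a small nuclear protein of the growth arrest and DNA damage-inducible family. The family binds stress kinases upstream of p38 and JNK, the cell cycle kinase Cdk1 and the replication clamp PCNA, and has been linked to DNA repair and active DNA demethylation. Transcription of Gadd45a is induced by p53 and by other stress signals, and the series title ties it to Akt signalling in the ventilated lung. The comparison of unventilated mice describes the organ without the gene before any injury.

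Values are deposited log2 levels, and a difference of 1 is a doubling. The median of an array's probe sets was 4.43 to 4.54 in KO SB and 4.37 to 4.49 in WT SB. Arrays of the same genotype correlated at 0.963 to 0.986 over 10996 genes, and arrays of different genotype at 0.949 to 0.983. The median SD within the SB groups was 0.216. The signal of the 3′ over the 5′ control probe set of beta-actin, a measure of RNA integrity and labelling, was 0.634 to 0.787 in KO SB and 1.07 to 1.10 in WT SB, so the groups did not overlap. The same measure for Gapdh was -0.122 to 0.353 in KO SB and 0.495 to 0.672 in WT SB. The lung genes Sftpc, Scgb1a1 and Ager, which mark type II, club and type I epithelial cells, averaged 15.46, 15.78 and 14.56 in KO SB and 15.45, 15.80 and 14.75 in WT SB. Scgb1a1 and the lysozyme gene Lyz1 read near the highest value on the SB arrays (15.76 to 15.89), where a difference may not be readable. The Y-linked gene Eif2s3y read 9.99 to 10.47 in KO SB and 10.57 to 10.63 in WT SB. All 3 probe sets of Xist read between 2.01 and 2.81 on the SB arrays, near the lower end of the scale.

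With 1 mean per group fitted to all 12 arrays in limma and an adjusted p threshold of 0.05, 12 of 10996 genes (0.109%) differed between KO SB and WT SB. Of these, 5 were higher (0.0455%) and 7 were lower (0.0637%). The higher genes were the immunoglobulin genes Igha and Igkv6-14, the B cell signalling adaptor Pik3ap1, the matrix glycoprotein gene Fbln2 and the mitochondrial transhydrogenase gene Nnt. The lower genes were Gadd45a itself, the ubiquitin ligase gene Mid1, Lrmda, Erdr1, Hps1 and the matrix genes Tnc and Smoc2. In each of the 12, all 3 KO SB arrays lay on one side of all 3 WT SB arrays. A difference of at least 1 was seen in 138 genes, 93 higher and 45 lower, and a difference of at least 2 in 21 genes, of which 8 passed the threshold. On simulated arrays with the same gene means and spread and independent normal noise, 67, 67 and 66 genes were changed by 1, 2 and 4. The fit recovered 55.2%, 92.5% and 98.5% of them in that order, and 7.87% of its 178 calls were false. With 178 calls the adjusted threshold admits larger p-values than with the 12 calls here. The simulated rates are therefore not rates of detection in these data.

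Below the threshold, more genes lay lower than higher. The arrays did not overlap in 1673 genes (15.2%), 413 higher (3.76%) and 1260 lower (11.5%), and the median difference of all genes was -0.06. At an unadjusted p under 0.05 there were 196 higher (1.78%) and 917 lower genes (8.34%). The size of this excess differed between settings. The counts were 593 higher and 1099 lower with the mean of a gene's probe sets, 1693 higher and 2132 lower over single probe sets, 267 higher and 1448 lower after centring each array on its median, and 444 higher and 6217 lower with no filter on low values. The 3′ over 5′ measure differed between the groups in the same arrays, and its part in these counts was not tested.

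**Figure D1:**
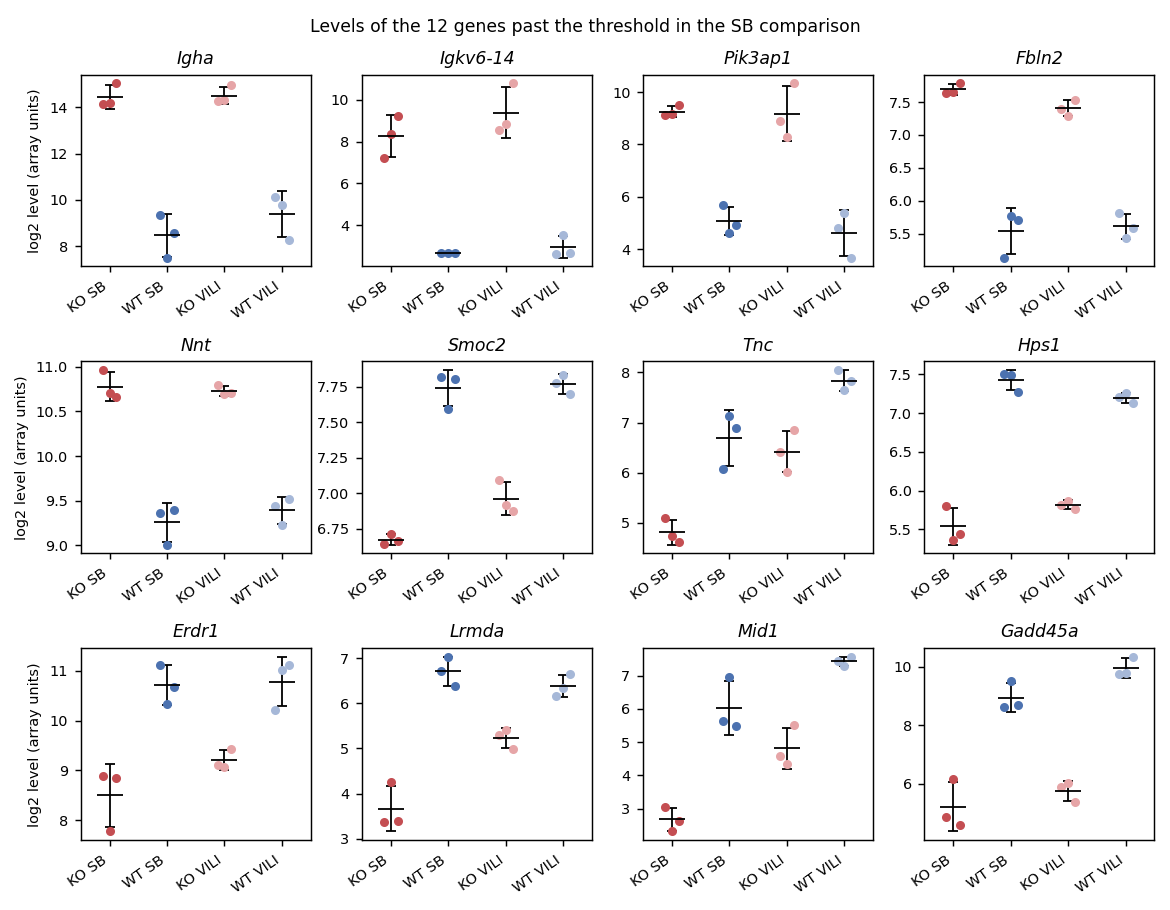
Log2 level of the 12 genes past the threshold on every array of the study, with the SB groups to the left of the VILI groups in each panel and KO left of WT. Points are arrays, horizontal bars are group means and vertical bars are SD (n = 3). No KO SB point reaches the WT SB points in any panel, and the axes do not start at 0.

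The targeted gene was read by 1 probe set. Gadd45a had 4.87, 6.15 and 4.58 in KO SB, against 8.62, 9.51 and 8.69 in WT SB. Every KO SB array lay below every WT SB array, at a level still above the array medians, and the KO SB arrays were 13.3-fold lower on average. The difference was -3.74 (SE 0.38, limma, adjusted p = 0.00136). The position of these probes relative to the deletion was not analysed here. A fit of the 6 SB arrays alone gave the same difference adjusted p = 0.0627.

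The other 2 family members did not pass the threshold. Gadd45b, induced by TGF-beta and NF-kB signalling, averaged 9.88 ± 0.33 in KO SB and 9.996 ± 0.154 in WT SB (SD, n = 3 each), a difference of -0.11 (SE 0.21). Gadd45g averaged 9.92 ± 0.40 in KO SB and 10.28 ± 0.32 in WT SB, a difference of -0.36 (SE 0.26). Their arrays overlapped. Of 21 measured family members and stress kinase partners, Gadd45a alone passed, and the list's median difference was -0.04, beside -0.06 for all genes. Pcna, the replication clamp that binds Gadd45a, averaged 11.76 ± 0.06 in KO SB and 11.42 ± 0.07 in WT SB, without overlap of the arrays (difference 0.34, SE 0.15, adjusted p = 0.470). Other partners, named after their values were seen, were apart in both directions. Mapk8 (0.57, SE 0.16, adjusted p = 0.310) and Mapk14 (0.17, SE 0.14) were apart higher, beside 3.76% of all genes. Mapk13 (-0.53, SE 0.17) and Map2k4 (-0.23, SE 0.10) were apart lower, beside 11.5%.

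The proximal promoters of Gadd45a and Pik3ap1 are shown. Of the genes past the threshold, 4 have exactly 1 promoter in the RefSeq table (3 others have several and 5 have none). Among those 4, Gadd45a had the largest fall and Pik3ap1 the largest rise in RNA level. Gadd45a is the targeted gene, and the output of neither start site was measured. Each run is the 250 bases before the transcript start, 5′ to 3′ on the gene's strand. Capitals mark the octamer ATTTGCAT, the CCAAT box and the GC box GGGCGG, searched on both strands with no overlap among the matches.
Gadd45a (GRCm38.p6, chr6:67037408-67037657, minus strand): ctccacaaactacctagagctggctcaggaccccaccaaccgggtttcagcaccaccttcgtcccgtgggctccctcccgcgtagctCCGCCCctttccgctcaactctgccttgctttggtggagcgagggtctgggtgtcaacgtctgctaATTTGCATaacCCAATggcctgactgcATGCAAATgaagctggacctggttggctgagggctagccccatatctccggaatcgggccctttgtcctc
Pik3ap1 (GRCm38.p6, chr19:41385103-41385352, minus strand): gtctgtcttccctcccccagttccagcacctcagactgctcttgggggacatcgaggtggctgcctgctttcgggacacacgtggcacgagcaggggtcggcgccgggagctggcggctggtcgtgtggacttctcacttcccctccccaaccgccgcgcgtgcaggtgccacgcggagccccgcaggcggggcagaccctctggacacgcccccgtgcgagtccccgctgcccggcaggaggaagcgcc

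In the Gadd45a window an octamer began 97 bases before the start, a CCAAT box 86 bases before it and a second octamer, on the other strand, 70 bases before it, with a GC box 163 bases before it. The octamer occurred in 1.6% of the 32851 promoter windows of this length, and 0.0974% held it more than once. A CCAAT box occurred in 33.8% and a GC box in 32.7%. None of these letters stood in the Pik3ap1 window. These matches describe the letters only, and no promoter activity was measured.

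Igha and Igkv6-14 had the 2 largest rises among the calls. Immunoglobulins are made by B cells and, in far larger amounts, by plasma cells, and Igha encodes the heavy chain of IgA, the antibody of mucosal surfaces. Igha had 14.12, 14.16 and 15.04 in KO SB, against 9.36, 7.50 and 8.55 in WT SB. The KO SB values were near the top of the scale, and the lowest of them lay far above the highest WT SB value. The difference was 5.97 (SE 0.52, adjusted p = 0.000286), and the other 2 probe sets of Igha gave 5.88 and 6.99, both past the threshold in a fit of all probe sets. Igkv6-14, a kappa light chain variable segment, had 7.21, 8.35 and 9.22 in KO SB, against 2.65, 2.67 and 2.67 in WT SB. The WT SB values lay below the array medians, where little or no signal is read, so the difference of 5.60 (SE 0.58, adjusted p = 0.00136) is approximate.

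Of the 12 immunoglobulin genes that passed the filter on low values, out of 21 on the array, these 2 passed the threshold and 6 had arrays that did not overlap, all higher in KO SB, beside 3.76% of all genes apart higher. In 5 of the 12 the WT SB mean lay below the array medians and the KO SB mean above them, so they passed through the arrays where they were high and the count is no support for a shift of all immunoglobulin genes. Over all 21, without the filter, 6 were apart higher and 6 apart lower, beside 444 higher and 6217 lower of 18193 genes. The following were named after their values were seen. Igkv8-30 had 13.79, 13.76 and 14.999 in KO SB, against 11.16, 7.15 and 10.04 in WT SB (4.73, SE 0.81, adjusted p = 0.0589). Jchain, which joins IgA and IgM into polymers, had 12.09, 12.40 and 13.98 in KO SB, against 9.53, 4.46 and 8.30 in WT SB (5.39, SE 1.05, adjusted p = 0.132). The KO SB arrays were higher in both genes without overlap, and WT SB replicate 2 was the lowest. Ighm, the heavy chain of IgM, had overlapping arrays on the brightest of its 8 kept probe sets, with a difference of 0.29 (SE 0.93). No probe set of Ighm passed the threshold in the fit of all probe sets, and the values of the others are not given here. Ighg3 of an IgG also overlapped, at -0.13 (SE 0.84). Both group means of Ighg3 lay below the array medians, so its levels give no comparison.

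The mean level of all 18 B cell markers on the array, with no filter, was 5.70, 5.33 and 8.09 in KO SB, against 5.72, 4.54 and 5.48 in WT SB, so the groups overlapped and KO SB replicate 3 stood apart. The difference of the means was 1.13 with this array and 0.27 without it. None of the 14 that passed the filter reached the threshold, and Ebf1, a B cell transcription factor, averaged 8.42 ± 0.38 in KO SB and 8.21 ± 0.09 in WT SB. Over all 21 immunoglobulin genes on the array, the mean level was 6.10, 5.89 and 7.09 in KO SB, against 4.96, 3.56 and 4.41 in WT SB. The groups did not overlap, and these means differed by 2.05 with KO SB replicate 3 and by 1.68 without it. Of 9 measured plasma cell and immunoglobulin genes 1 passed the threshold (Igha). Among the plasma cell regulators, Xbp1 differed by 0.18 (SE 0.12) and Prdm1 by 0.31 (SE 0.28), and Sdc1, also on epithelium, by -0.22 (SE 0.17). After VILI the B cell mean was 6.08, 5.37 and 8.86 in KO, against 5.36, 5.75 and 5.43 in WT, again with 1 high KO array. In whole lung, more cells of a type and more RNA per cell cannot be told apart, and the part of cell number in these differences was not tested.

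Pik3ap1, also called BCAP, couples the B cell receptor and Toll-like receptors to phosphoinositide 3-kinase and so to Akt. It had 9.11, 9.15 and 9.49 in KO SB, against 5.68, 4.62 and 4.94 in WT SB. All KO SB arrays were high. The B cell marker levels of 2 of them lay within the WT SB range, while the immunoglobulin means of all of them lay above it. The part of cell number in the rise of Pik3ap1 was not tested. The difference was 4.17 (SE 0.52, adjusted p = 0.00576), an 18.0-fold rise. A second probe set of Pik3ap1 did not pass the filter and read 2.20, 2.20 and 2.20 in KO SB and 1.95, 2.20 and 2.22 in WT SB. Without WT SB replicate 3 the adjusted p was 0.0507, and with the replicate block within each treatment it was 0.0780.

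The rest of the Akt pathway had no gene past the threshold. Of 37 measured PI3K, Akt and mTOR genes 0 were called, beside 0.109% of all genes, a share at which a list of this size would seldom hold a call. At an unadjusted p under 0.05 there were 0 in the higher direction and 1 in the lower, beside 1.78% and 8.34% of all genes. Their median difference was -0.04, beside -0.06 for all genes. The mean level of the 38 on the array was 8.76 to 8.86 in KO SB and 8.79 to 8.84 in WT SB. Sgk1, a kinase related to Akt, averaged 13.94 ± 0.39 in KO SB and 13.91 ± 0.31 in WT SB, and the chaperone Hsp90aa1 13.74 ± 0.35 and 13.69 ± 0.31 in the same order. The kinases Akt1 and Akt2 differed by -0.20 (SE 0.16) and -0.35 (SE 0.15, adjusted p = 0.455). Of 12 measured ubiquitin enzymes that act on Akt 0 passed, and Xiap (0.02, SE 0.09) and Nedd4 (0.05, SE 0.10) were the most abundant.

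Fbln2 encodes fibulin 2, a glycoprotein of elastic fibres and basement membranes. It had 7.64, 7.65 and 7.78 in KO SB, against 5.14, 5.78 and 5.71 in WT SB. The KO SB arrays lay close together, above all WT SB arrays (2.15, SE 0.18, adjusted p = 0.000286). Nnt, the proton-pumping transhydrogenase that supplies mitochondrial NADPH, had 10.96, 10.71 and 10.65 in KO SB, against 9.36, 9.01 and 9.40 in WT SB. The difference was 1.52 (SE 0.13, adjusted p = 0.000286), and a second probe set gave 1.56. Nnt is known to carry a deletion in the C57BL/6J substrain.

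Mid1 and Erdr1 were lower. Both lie at the far end of the mouse X chromosome, by the pseudoautosomal boundary, with 1 measured gene between them here, and both are known to vary among inbred strains. Mid1, a microtubule-bound ubiquitin ligase that controls turnover of a PP2A subunit, had 3.05, 2.33 and 2.64 in KO SB, against 5.63, 6.97 and 5.50 in WT SB. KO SB values lay below the array medians, so the difference of -3.36 (SE 0.39, adjusted p = 0.00332) is approximate. Erdr1 had 8.90, 7.78 and 8.85 in KO SB, against 11.12, 10.32 and 10.67 in WT SB. All KO SB arrays were lower (-2.20, SE 0.32, adjusted p = 0.0256), and the call was lost without KO SB replicate 2 (0.0542), without WT SB replicates 1 (0.0949) and 3 (0.112), and without KO VILI replicate 2 (0.0507). The probe sets of Erdr1, Nnt and Hps1 carry the suffix _x_at, which Affymetrix gives to sets whose probes can match several transcripts.

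Nnt, Mid1 and Erdr1 were the calls in a list of 27 measured genes that vary among inbred strains, 1 higher and 2 lower. The median of the list was 0.02, and 5 genes were apart higher and 4 apart lower, beside 3.76% and 11.5% of all genes. Wdfy1, another of its members, was named after its values were seen. Its 3 kept probe sets had differences of 1.27, 1.48 and 1.65, and all KO SB arrays lay above all WT SB arrays on each. The brightest, which stood for the gene, read 10.34, 10.06 and 10.09 in KO SB, against 9.16, 8.73 and 8.79 in WT SB (adjusted p = 0.0736), and the other 2 passed in the fit of all probe sets (0.00997 and 0.0205). In limma the call of the probe set at 1.65 was lost with only the 6 SB arrays (adjusted p = 0.155) and with these arrays and a replicate block (0.101). It was also lost without KO SB replicate 1 (0.0710) or 2 (0.0625). The list was drawn up with results of these data known. Strain is not given for either genotype, so strain and the loss of Gadd45a cannot be told apart here.

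Stbd1, a glycogen-binding protein of the endoplasmic reticulum, was named after its values were seen, as the largest difference among genes outside the calls that lay lower. It had 5.85, 5.74 and 6.23 in KO SB, against 9.30, 8.89 and 9.26 in WT SB. The gap was -3.21, and all 3 KO SB arrays were tightly low. In the VILI arrays it had 9.12, 5.52 and 5.10 in KO, against 9.07, 9.11 and 8.67 in WT, so that KO VILI replicate 1 alone read at the WT level. In the 12-array fit the SE was 0.78 and the adjusted p 0.266. Without KO VILI replicate 1 they were 0.20 and 0.000115, and without each of the other 11 arrays the adjusted p was 0.139 to 0.596. In the fit of the 6 SB arrays alone it was 0.00613, the lowest of the 8 genes called there.

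Hps1 and Lrmda, both linked to pigment cells, were lower. Hps1 encodes a subunit of BLOC-3, which builds lysosome-related organelles such as melanosomes, platelet dense granules and the lamellar bodies of type II cells. It had 5.80, 5.37 and 5.44 in KO SB, against 7.51, 7.49 and 7.27 in WT SB, a difference of -1.89 (SE 0.15, adjusted p = 0.000286). The other kept probe set of Hps1 read 5.01 to 5.02 in KO SB and 5.02 to 5.41 in WT SB and overlapped (-0.14), and the mean of both probe sets gave -1.01. Lrmda had 3.36, 4.25 and 3.39 in KO SB, against 6.72, 7.01 and 6.38 in WT SB. The KO SB mean lay below the array medians, and the difference was -3.04 (SE 0.26, adjusted p = 0.000286). Type II cell genes as a list had 0 of 19 measured members past the threshold and a median of 0.01, with Lyz1, near the top of the scale, at 15.74 ± 0.16 in KO SB and 15.68 ± 0.03 in WT SB.

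Genes of the extracellular matrix made up the remaining falls. Tnc encodes tenascin C, a matrix protein of developing and injured tissue. It had 5.09, 4.73 and 4.62 in KO SB, against 6.07, 7.13 and 6.89 in WT SB. The difference was -1.88 (SE 0.28, adjusted p = 0.0292), the highest adjusted p of the 12 calls. The second probe set of Tnc read 3.33, 3.34 and 3.32 in KO SB, against 3.36, 4.24 and 3.78 in WT SB, below the array medians, and the mean of both gave -1.17 (adjusted p = 0.0959). The adjusted p was 0.0800 with the replicate number as a block, and the call was lost in 8 of the 12 fits that leave out an array, without KO SB replicates 1 (0.0574), 2 (0.117) or 3 (0.0841), WT SB replicates 2 (0.135) or 3 (0.153), or WT VILI replicates 1 (0.0589), 2 (0.0579) or 3 (0.0616). Smoc2, a secreted calcium-binding relative of SPARC, had 6.64, 6.71 and 6.66 in KO SB, against 7.82, 7.59 and 7.81 in WT SB. The difference was -1.07 (SE 0.12, adjusted p = 0.00300), while its second probe set overlapped (-0.23), and the mean of both gave adjusted p = 0.288.

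Of 29 measured fibroblast and matrix genes 1 passed the threshold (Tnc). The arrays of 10 were apart, all lower, and of 0 apart higher, beside 11.5% and 3.76% of all genes. The median was -0.29. The mean level of the list was 10.33, 10.28 and 10.25 in KO SB, against 10.66, 10.57 and 10.61 in WT SB, without overlap. The 3′ over 5′ signal of beta-actin separated the same arrays, at 0.634 to 0.787 in KO SB and 1.07 to 1.10 in WT SB, and its part in this list was not tested. Members named after their values were seen include elastin (Eln, -0.84, SE 0.20, adjusted p = 0.266), Sparc (-0.52, SE 0.12), Loxl1, which crosslinks elastin (-0.62, SE 0.18), and type III collagen (Col3a1, -0.58, SE 0.17), each with arrays apart in SB and in VILI. Postn (0.00, SE 0.08) and Pdgfra (0.02, SE 0.12), a fibroblast receptor, differed by less than their SE.

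Of 16 smooth muscle and pericyte markers 0 passed, 5 were apart lower (11.5% of all genes were) and the median was -0.43. The mean level was 9.52, 9.11 and 9.59 in KO SB, against 9.85, 9.59 and 10.09 in WT SB. Acta2, smooth muscle actin, averaged 12.27 ± 0.12 in KO SB and 12.68 ± 0.31 in WT SB (-0.41, SE 0.14, adjusted p = 0.370), and Itga8 differed by -0.10 (SE 0.17). Tagln, named after its values were seen, had 11.64, 11.22 and 11.54 in KO SB, against 12.11, 11.99 and 12.13 in WT SB (-0.61, SE 0.11, adjusted p = 0.0589). Igf1, a growth factor made by lung fibroblasts and macrophages and also named on its values, had 7.38, 7.83 and 7.52 in KO SB, against 8.43, 8.73 and 9.21 in WT SB (-1.21, SE 0.21, adjusted p = 0.0689). In its list of 27 growth factor genes 0 passed, 9 were apart lower and 2 apart higher, beside the same 11.5% and 3.76%, and the most abundant, Igfbp7 and Igfbp4, differed by -0.21 (SE 0.21) and -0.32 (SE 0.19).

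**Figure D2:**
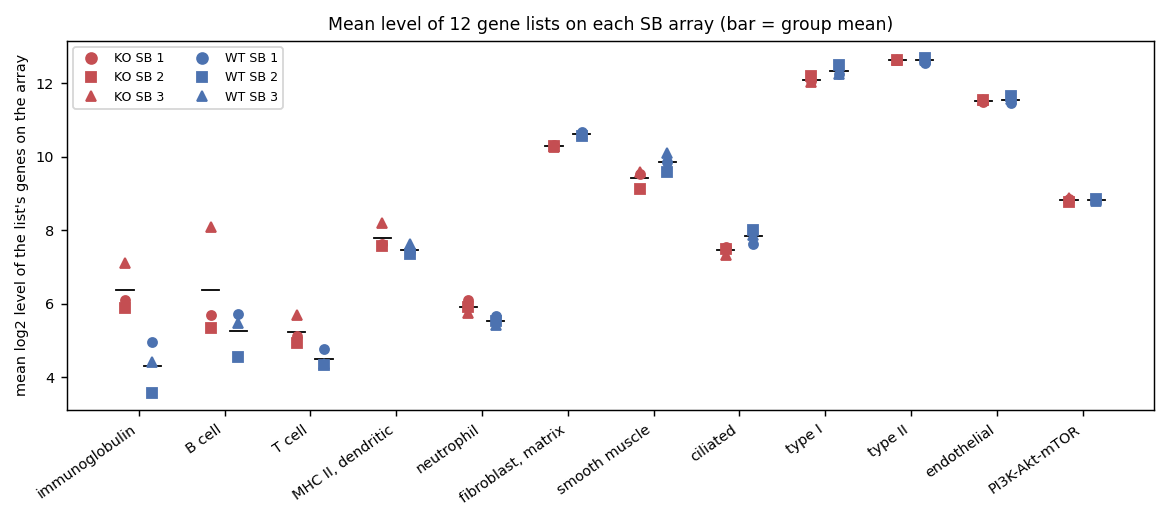
Mean log2 level, with no filter on low values, of the genes of 12 lists on each SB array, KO SB (red) left of WT SB (blue) in each pair, with symbols for replicates 1 to 3 and bars at the group means. The immunoglobulin means are 5.89 to 7.09 in KO SB and 3.56 to 4.96 in WT SB, the B cell means overlap, with KO SB replicate 3 above all others, and the endothelial and PI3K-Akt-mTOR means overlap closely.

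No marker in the lists of other immune cells passed the threshold in the main fit. Of 9 T cell markers that passed the filter, out of 17 on the array, 7 had arrays apart and higher, beside 3.76% of all genes, and 1 of the 9, Cd3g, had a WT SB mean below the array medians and passed through KO arrays. The mean level of all 17, with no filter, was 5.11, 4.92 and 5.68 in KO SB, against 4.76, 4.33 and 4.35 in WT SB. The groups did not overlap, and the means differed by 0.76, or by 0.54 without KO SB replicate 3. Lat, an adaptor of the T cell receptor, averaged 7.49 ± 0.78 in KO SB and 6.36 ± 0.51 in WT SB, and the interleukin receptor Il7r 8.497 ± 0.399 and 7.36 ± 0.94 in the same order. Of 11 MHC class II and dendritic cell markers 6 were apart higher (3.76% of all genes were), with H2-Aa at 13.46 ± 0.18 in KO SB and 13.19 ± 0.13 in WT SB. The mean of all 16 on the array overlapped between the groups and differed by 0.34, or by 0.14 without KO SB replicate 3. Neutrophil markers (0 of 15 passed, and 3 were apart higher beside the same 3.76%) included Lcn2 (0.93, SE 0.26, adjusted p = 0.310) and the calcium-binding S100a8 (0.70, SE 0.25, adjusted p = 0.384). With the replicate block within each treatment, a limma fit added after seeing the data, S100a8 passed (SE 0.09, adjusted p = 0.0483). The macrophage list had 0 of 18 past the threshold, with Chil3 at 0.18 (SE 0.33), and the natural killer cell list 0 of 8, with Ccl5 at 0.68 (SE 0.34) and Gzma at 0.77 (SE 0.36).

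Of 23 measured markers of motile cilia 0 passed, 9 were apart lower and 0 higher, beside 11.5% and 3.76% of all genes, and the median was -0.42. The mean level of the 25 on the array was 7.53, 7.48 and 7.33 in KO SB, against 7.62, 8.01 and 7.88 in WT SB, without overlap. Dynlrb2, a dynein light chain, averaged 10.78 ± 0.06 in KO SB and 11.07 ± 0.09 in WT SB, and Tppp3 12.15 ± 0.06 and 12.19 ± 0.22 in the same order. After VILI 0 of the 23 were apart lower and 1 was apart higher, beside 8.13% and 6.64% of all genes. Of 14 type I cell markers 5 were apart lower (11.5% of all genes were), Ager among them (-0.19, SE 0.11), with Hopx at -0.04 (SE 0.17). Of 20 club cell markers 4 were apart lower, beside the same 11.5%, and the median was -0.04, with Scgb1a1, near the top of the scale, at -0.03 (SE 0.06) and Cbr2 at 0.00 (SE 0.08). Endothelial markers had 0 of 26 past the threshold and a median of -0.02, with the adrenomedullin receptor Calcrl at -0.03 (SE 0.16) and Ptprb at -0.12 (SE 0.15). The 3′ over 5′ measure differed between the groups on the same arrays as these lists, and its part in them was not tested.

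Stress, repair and metabolic lists held 1 call apart from Gadd45a, Nnt in the list of 29 antioxidant genes. In that list 9 genes were apart lower and Nnt alone was apart higher, beside 11.5% and 3.76% of all genes, with a median of -0.23. Me1, which makes NADPH in the cytosol and was named after its values were seen, had 9.41, 9.72 and 9.61 in KO SB, against 10.43, 10.47 and 10.24 in WT SB (-0.80, SE 0.14, adjusted p = 0.0570). The p53 target and apoptosis list had 0 of 33 past the threshold, with Trp53inp1 at 0.08 (SE 0.22) and Mcl1 at 0.04 (SE 0.11). DNA repair had 0 of 27, with Ddb1 at -0.07 (SE 0.11) and Parp1 at 0.00 (SE 0.24). Cell division had 0 of 34, with Pcna at 0.34 (SE 0.15, arrays apart) and Ccnd1 at -0.34 (SE 0.15, arrays overlapping). Partners of DNA demethylation had 0 of 12, with Tet2 at 0.03 (SE 0.18) and Ing1 at -0.09 (SE 0.12). NF-kB signalling had 0 of 29, with its inhibitor Nfkbia at 0.06 (SE 0.07) and the adhesion molecule Icam1 at -0.10 (SE 0.15). Acute cytokines and chemokines had 0 of 9, interferon-stimulated genes 0 of 27, and junction genes, which seal the alveolar barrier, 0 of 21. In all, 6 of the 12 calls lay in the 45 lists, which together had 739 measured genes, and 40 lists held none. Of all genes 0.109% were called. The lists were chosen with earlier results of these data known, and one is built on Gadd45a, so the count is no support for a concentration of calls in them.

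Genes beside Gadd45a were examined by their order on chromosome 6, since the sequence around a targeted gene can come from another strain than the rest of the genome. Among the 30 measured genes on each side, 1 of 60 passed the threshold, beside 0.109% of all genes. It was Igkv6-14, which is separated from Gadd45a by 7 measured genes. The immunoglobulin kappa genes lie on that side of Gadd45a, and the 7 measured ones had differences of 1.95 to 5.60 with a median of 4.73. The 53 neighbours that are not immunoglobulin genes had a median of -0.01, and 0 were called. Of them, 10 were apart lower and 2 apart higher, beside 11.5% and 3.76% of all genes. The nearest, Gng12 on one side and Serbp1 on the other, differed by -0.07 (SE 0.14) and -0.05 (SE 0.08). The 2 apart higher, named on their values, were Mindy4, at 7.41, 6.80 and 6.33 in KO SB against 5.25, 5.18 and 5.07 in WT SB (1.68, SE 0.27, adjusted p = 0.0515), and Herc6, an interferon-induced ligase (1.12, SE 0.36, adjusted p = 0.349). Fbln2 lies on the same chromosome, 116 measured genes beyond Igkv6-14. Chromosome 6 held 3 of the 12 calls among its 586 measured genes, chromosome 19 held 2, Pik3ap1 and Hps1 with 14 measured genes between them, and the X chromosome held 2.

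**Figure D3:**
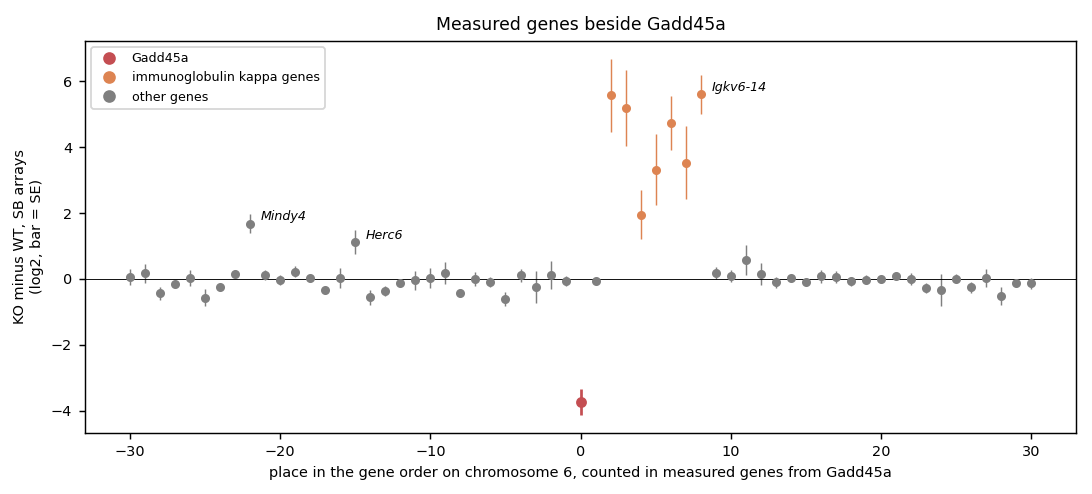
Difference between KO SB and WT SB (log2, with SE bars) of Gadd45a and of the 30 measured genes on each side of it, in their order on chromosome 6. The 7 immunoglobulin kappa genes stand between 1.95 and 5.60, Mindy4 and Herc6 are at 1.68 and 1.12, and the other neighbours lie between -0.61 and 0.57.

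The genotype difference was measured again in the VILI arrays, whose values enter no SB difference. The 12 calls were not chosen independently of these arrays, because the fit took each gene's spread from all 12 arrays. Genes with close VILI replicates were thus more likely to be called. With each treatment fitted alone, 5 of 8 SB calls passed after VILI. The 12 calls all had the same sign after VILI. All 12 had VILI arrays that did not overlap in the same direction, beside 6.64% of all genes apart higher and 8.13% apart lower. In the 12-array fit 9 of the 12 passed the threshold after VILI, among 11 genes that did (0.1%), 5 higher (0.0455%) and 6 lower (0.0546%), and in a fit of the 6 VILI arrays alone 6 of them passed. The differences after VILI were 5.11 for Igha, 6.42 for Igkv6-14, 4.56 for Pik3ap1, 1.79 for Fbln2 and 1.34 for Nnt. They were -4.20 for Gadd45a, -2.62 for Mid1, -1.38 for Hps1 and -0.80 for Smoc2. The 3 that did not pass were Lrmda (-1.15, adjusted p = 0.259), Erdr1 (-1.57, adjusted p = 0.179) and Tnc (-1.41, adjusted p = 0.152). The 2 genes past the threshold after VILI and not in SB were Eln (-1.71 after VILI, -0.84 in SB) and Igf1 (-1.54 after VILI, -1.21 in SB).

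A test of the change in the genotype difference between treatments found 0 of 10996 genes (0%) past the threshold in limma, with 288 (2.62%) at an unadjusted p under 0.05. The most unequal of the 12 was Lrmda, where KO arrays read 5.30, 5.40 and 4.98 after VILI, against 6.16, 6.33 and 6.64 in WT. Its interaction was 1.89 (unadjusted p = 0.000326, adjusted p = 0.9999). With a criterion set after seeing the data, 26 genes had a difference of at least 1 in both treatments with arrays apart in the same direction, 17 higher and 9 lower, and 0 genes met it in opposite directions. These 26 include 11 of the 12 calls, all but Smoc2. The other 15 were the immunoglobulin genes Igk, Igkv8-30 and 1 further kappa variable segment, with Jchain, the lymphocyte genes Ccr6, Mzb1, Cd3g, Trbv1, Trav9d-3 and Irf4, and Slpi and Herc6, all higher, and Ddah1, C6 and Igf1, all lower. In Igk, the further kappa segment, Cd3g and Irf4 the WT SB mean lay below the array medians, and the KO SB mean above them. Little or no signal is read at such WT SB levels, so the sizes of these differences are approximate. That these genes met the criterion depends on the signal read in KO arrays. Of the 26, 8 lie on chromosome 6, which held 586 of the 10996 measured genes. These 8 include Gadd45a itself and the immunoglobulin kappa genes, which lie together there.

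**Figure D4:**
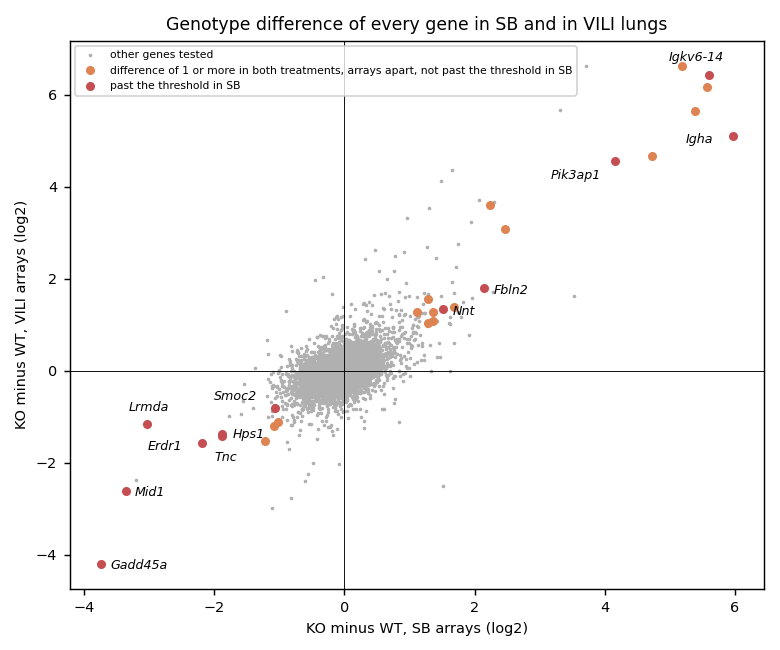
Difference between KO and WT (log2) of every measured gene in SB arrays (horizontal axis) and in VILI arrays (vertical axis), which share no array. Red points are the 12 genes past the threshold in SB, all in the quadrants of equal sign, and orange points are the 15 others with a difference of at least 1 and arrays apart in both treatments.

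Tested as single probe sets, 23 of 23082 differed, 12 higher and 11 lower, in 15 named genes. Genes added by this count were Wdfy1, Tia1 and Hoxa5, named on their values. Tia1, an RNA-binding protein that regulates splicing and stress granules, had 1 probe set at 3.30, 2.70 and 2.75 in KO SB, against 8.28, 7.11 and 7.43 in WT SB. That probe set differed by -4.69 (SE 0.32, adjusted p = 0.000230) and by -4.46 after VILI, while the 3 other kept probe sets of Tia1 differed by 0.26 to 0.43 with overlapping arrays. Hoxa5, a homeobox gene of lung mesenchyme, had 1 probe set at 5.60, 6.11 and 5.87 in KO SB, against 7.64, 8.15 and 7.88 in WT SB (-2.03, SE 0.23, adjusted p = 0.00311), and its brighter probe set differed by 0.21 with overlap. Both genes lie on chromosome 6.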

How the data were processed

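The authors deposited log2 expression values of 45101 probe sets on 12 arrays, and per the submitters' processing notes MAS5 and GCRMA were used, without versions, order or roles. Values were used as deposited, and the lower end of the scale (about 2 to 3) holds probe sets with little or no signal. Control probe sets (64) were removed, and 23082 probe sets remained after requiring a value over that array's median on 3 or more of the 12 arrays. Names came from the platform annotation, and gene order from RefSeq (34754 probe sets matched). The brightest remaining probe set, by mean over arrays, stood for each of 10996 genes, and 3424 without a single symbol were not assigned to a gene.

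limma 3.58.1 (R 4.3.3, data.table version 1.17.8) was fitted to all 12 arrays with 1 mean per group and a mean-variance trend, two-sided, with Benjamini-Hochberg adjustment over all genes (threshold 0.05), and was checked on simulated data. The design gives 3 mice per group, which limits the precision, and nothing states separate hybridisation batches. Lists were described by counts, without a test, and list levels per array average every member on the array, without the filter. The members and lists were chosen with earlier results of these data known. Named genes were the Gadd45 family, up to 15 calls per direction, per list up to 4 calls or else the 2 most abundant members, the nearest and called neighbours of Gadd45a, and Nnt. Genes outside this rule were named after their values were seen, among them Akt1, Akt2, Xbp1, Prdm1, Sdc1, Ighg3, Eif2s3y, Xist, Eln, Sparc, Loxl1, Col3a1, Postn and Pdgfra.

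Replicate numbers are in the titles, without a statement of pairing. Deviations of same-numbered KO SB and WT SB arrays correlated at 0.231, 0.526 and 0.318, each the highest for its array. Same-numbered arrays may therefore be pairs. The main fit had no block, so its SE and adjusted p take no account of a pairing. Fits with the replicate number as a block were run as alternatives and gave 13 to 17 calls. Their values are given where a block ended a call. Alternatives covered normalization, filter, probe set choice, variance model, block, array weights and each array left out.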

Additional observations from a re-analysis of the deposited data

Results flagged for a closer look

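Of the 3424 kept probe sets that carry no single gene symbol, and so were outside the gene comparison, 4 passed the threshold in a limma fit of all kept probe sets. In that fit 23 of all 23082 kept probe sets passed. Of the 4, 2 were above the WT SB level and 2 below it. Probe set 1458661_at, which has no symbol, read 8.47, 8.24 and 8.31 in KO SB, against 7.04, 6.50 and 7.18 in WT SB, a difference of 1.43 (SE 0.20, adjusted p = 0.0220). Probe set 1427851_x_at, listed with several symbols, read 7.55, 7.03 and 8.34 in KO SB, against 3.32, 2.78 and 2.66 in WT SB, a difference of 4.72 (SE 0.73, adjusted p = 0.0390). The WT SB values of the second lay below the array medians. The falls were 1431478_at (-1.77, SE 0.19, adjusted p = 0.00230), with KO SB values below the array medians, and 1439200_x_at (-1.90, SE 0.29, adjusted p = 0.0375). Which genes these probe sets measure was not analysed here.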

How the results depend on the processing

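Igha, Igkv6-14, Fbln2, Nnt, Lrmda and Hps1 kept their direction and stayed past the threshold under every alternative in which they could be tested. Of the 12 calls 12 kept their sign. Gadd45a was at -3.74 (adjusted p = 0.0627) with only the 6 SB arrays, where Mid1 (0.0741), Erdr1 (0.210), Tnc (0.243) and Smoc2 (0.126) were also lost. Erdr1 (0.0570) and Tnc (0.0570) were lost with no filter, Erdr1 with array weights (0.0533), and Tnc with the mean of a gene's probe sets (-1.17, 0.0959), where Smoc2 (-0.65, 0.288) was lost too and Hps1 was at -1.01. The replicate block gave 13 calls, 11 of them shared, and the difference of Gadd45a was -3.74 (adjusted p = 0.00125). Apart from Tnc it ended no call. Of 2 block fits added after seeing the data, the block within each treatment gave 17 calls, S100a8 (0.0483) among them, and ended Pik3ap1 (0.0780) and Tnc (0.0939). The other, the 6 SB arrays with a block, gave 13 and ended Mid1 (0.0992), Tnc (0.167) and Smoc2 (0.149). The count of 12 calls was 23 over single probe sets, and 9 to 18 without each array. The count of genes with arrays apart (1673) was 6661 with no filter, 3825 over single probe sets and 1673 to 3576 without each array. It was 2879 and 3576 without KO SB replicates 2 and 3, and 3052 and 2709 without WT SB replicates 1 and 3, since fewer arrays overlap less. Called list members (6) were 2 with only the SB arrays, 10 with the block within each treatment and 4 to 9 without each array. Of the SB calls, 9 passed after VILI, 15 of 23 over single probe sets, 5 of 8 with each treatment fitted alone, and 7 to 15 without each array (15 of 17 without WT SB replicate 1). Called neighbours of Gadd45a (1) were 2 with centred arrays, with the filter on SB arrays, with no variance trend and with each of the 3 block fits, 3 with array weights, and 1 to 3 without each array (3 without WT SB replicate 1 and without KO VILI replicate 3, 2 without KO SB replicate 3 and without WT SB replicate 2). The interaction gave 0 calls in limma under every alternative run, with 148 to 1025 genes at an unadjusted p under 0.05. Lists whose group means, over members past the filter, were apart numbered 13 of 46, and 13 to 21 without each SB array, 21 being without KO SB replicate 2. Causes were not tested. Signal limits what can be said of Igkv6-14, Mid1 and Lrmda, which have a group below the array medians.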

Other observations

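The arrays of 5 of the 30 measured heat shock and unfolded protein response genes were apart and higher in KO SB, beside 3.76% of all genes, with a list median of 0.21 and Hspa5, the main chaperone of the endoplasmic reticulum, at 13.71 ± 0.25 in KO SB and 13.57 ± 0.21 in WT SB (SD, n = 3 each). Of 14 measured clock genes that peak with Dbp 1 was apart higher in KO SB and 8 were apart higher in KO after VILI, beside 3.76% and 6.64% of all genes, with Nr1d2 at 12.85 ± 0.18 in KO SB and 12.75 ± 0.18 in WT SB. Car3, an adipocyte enzyme, averaged 12.19 ± 1.18 in KO SB and 11.16 ± 2.85 in WT SB, and Myl7, of atrial muscle, 11.36 ± 0.48 in KO SB and 11.66 ± 0.72 in WT SB.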
